A study of Mus musculus with 16 samples.

Results

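The genes described here are the splicing factor families on the array: the SR proteins (Srsf), the heterogeneous nuclear ribonucleoproteins (Hnrnp), the U2AF and SF3a and SF3b subunits, the core snRNP proteins (Snrp) and the pre-mRNA processing factors (Prpf). They were chosen by symbol, with earlier results of these data known. Of the 18193 genes with a probe of their own, 62 bore such a symbol, on 174 of 34945 probes. Expression was measured in the left cochlea, taken whole, of male mice of DBA/2J, an inbred strain with early progressive hearing loss, with 1 mouse per array. Of the 16 arrays, 5 came from untreated mice at 4 weeks of age (4 weeks), 5 from mice at 12 weeks after 8 weeks of daily subcutaneous vehicle, sodium bicarbonate (control), and 6 from mice at 12 weeks after 8 weeks of L-methionine at 500 mg/kg with valproic acid at 300 mg/kg in that vehicle (M+V). M+V against control addressed the treatment, while control against 4 weeks combined age with 8 weeks of injections, which cannot be told apart. M+V against 4 weeks combined age, injections and both compounds, so a difference there cannot be assigned to the treatment. A whole cochlea holds bone, marrow, nerve and sensory epithelium, so fewer cells of a type and less RNA per cell cannot be told apart either.

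Introns are removed from pre-mRNA by the spliceosome, a machine assembled anew on each intron from snRNPs, which are complexes of small nuclear RNA and protein. U2AF marks the 3' end of the intron and the U2 snRNP, with its SF3a and SF3b subcomplexes, then takes the branch point, while Prpf proteins act mostly with the U4/U6.U5 tri-snRNP and in catalysis. SR proteins bind exons and as a rule favour their inclusion, and hnRNPs bind pre-mRNA broadly and often oppose them. Many SR protein and hnRNP transcripts are themselves spliced into several forms, so probes for 1 gene can read different transcripts.

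Each gene was read from its brightest probe, the one with the highest mean log2 signal over all arrays. By family there were 10 SR protein genes, 19 hnRNP genes, 3 U2AF genes, 9 SF3a and SF3b genes, 9 Snrp genes and 12 Prpf genes. The brightest probe of 60 of the 62 genes passed the filter on dim probes, which asks that 1 or more groups have the signal at or above the median of the array throughout. The exceptions were Snrpn, with log2 signals of 2.62 to 6.34, and Srsf12, with log2 signals of 2.39 to 5.92, both below the array median of 6.90 on every array. Probes of 19 genes stood alone, and 38 genes had more than 1 tested probe, up to 7, which gave 146 tested probes in all. Probes annotated to several genes at once, 18 with a splicing factor among them, were left out because their signal cannot be given to 1 gene.

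The arrays fell into 2 sets by the bioB hybridisation control, a spiked bacterial transcript, whose log2 signal was 8.91 to 9.62 on 8 arrays and 5.73 to 6.08 on the other 8. The high spike-in signal belonged to the 5 arrays at 4 weeks, to 1 control array (replicate 1) and to 2 M+V arrays (replicates 1 and 2), so comparisons with 4 weeks rest on few arrays of a matching kind. Values with the spike-in set as a block, and within the arrays of 1 set, are given beside the results they moved most. Most cochlear markers were present, with 13 of 16 above the array median on all arrays and Coch, the cochlin gene, at log2 14.84 to 15.42. The exceptions were the hair cell genes Slc26a5, at 0.64 to 5.66, and Pou4f3, at 2.61 to 5.66, and Tecta, at 6.12 to 8.37. The summed signal of 8 bone markers was 72700 to 82200 at 4 weeks, 36400 to 52000 in control and 33100 to 46800 in M+V arrays. The summed signal of 11 oligodendrocyte markers was 45400 to 52900, 40500 to 48800 and 24300 to 48700 in the same order. M+V replicate 1 stood apart with a summed signal of 97.8 over 6 erythroid markers, against at least 14100 on any array at 4 weeks and at least 15700 in control. The part of these tissue differences in the values that follow was not tested. The average over the splicing factor genes, each centred on its own mean, lay between -0.12 and 0.05 at 4 weeks, -0.08 and 0.08 in control and -0.10 and 0.09 in M+V on the log2 scale, so the groups overlapped.

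M+V and control cochleae carried nearly the same splicing factor signals. None of the 60 genes passed an adjusted p of 0.05 by limma or by the methods' t-test, against 0% of 11450 tested genes in either direction, and none passed the study's cutoffs of a fold over 1.5 with an unadjusted p under 0.05, against 0.201% of genes higher and 0.987% lower. At an unadjusted p under 0.05, 2 were higher, against 5.09% of all genes, and 0 were lower, against 3.74%. The log2 fold changes ran from -0.22 to 0.28 with a median of 0.01, beside 0.02 over all tested genes, and 31 lay above 0 and 29 below. For all 60 genes the 95% interval of the difference stayed within a 1.5-fold change either way, as it did for 81.2% of tested genes. No gene had M+V arrays wholly above or wholly below the control arrays, against 0.611% and 0.288% of all genes.

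**Figure D1:**
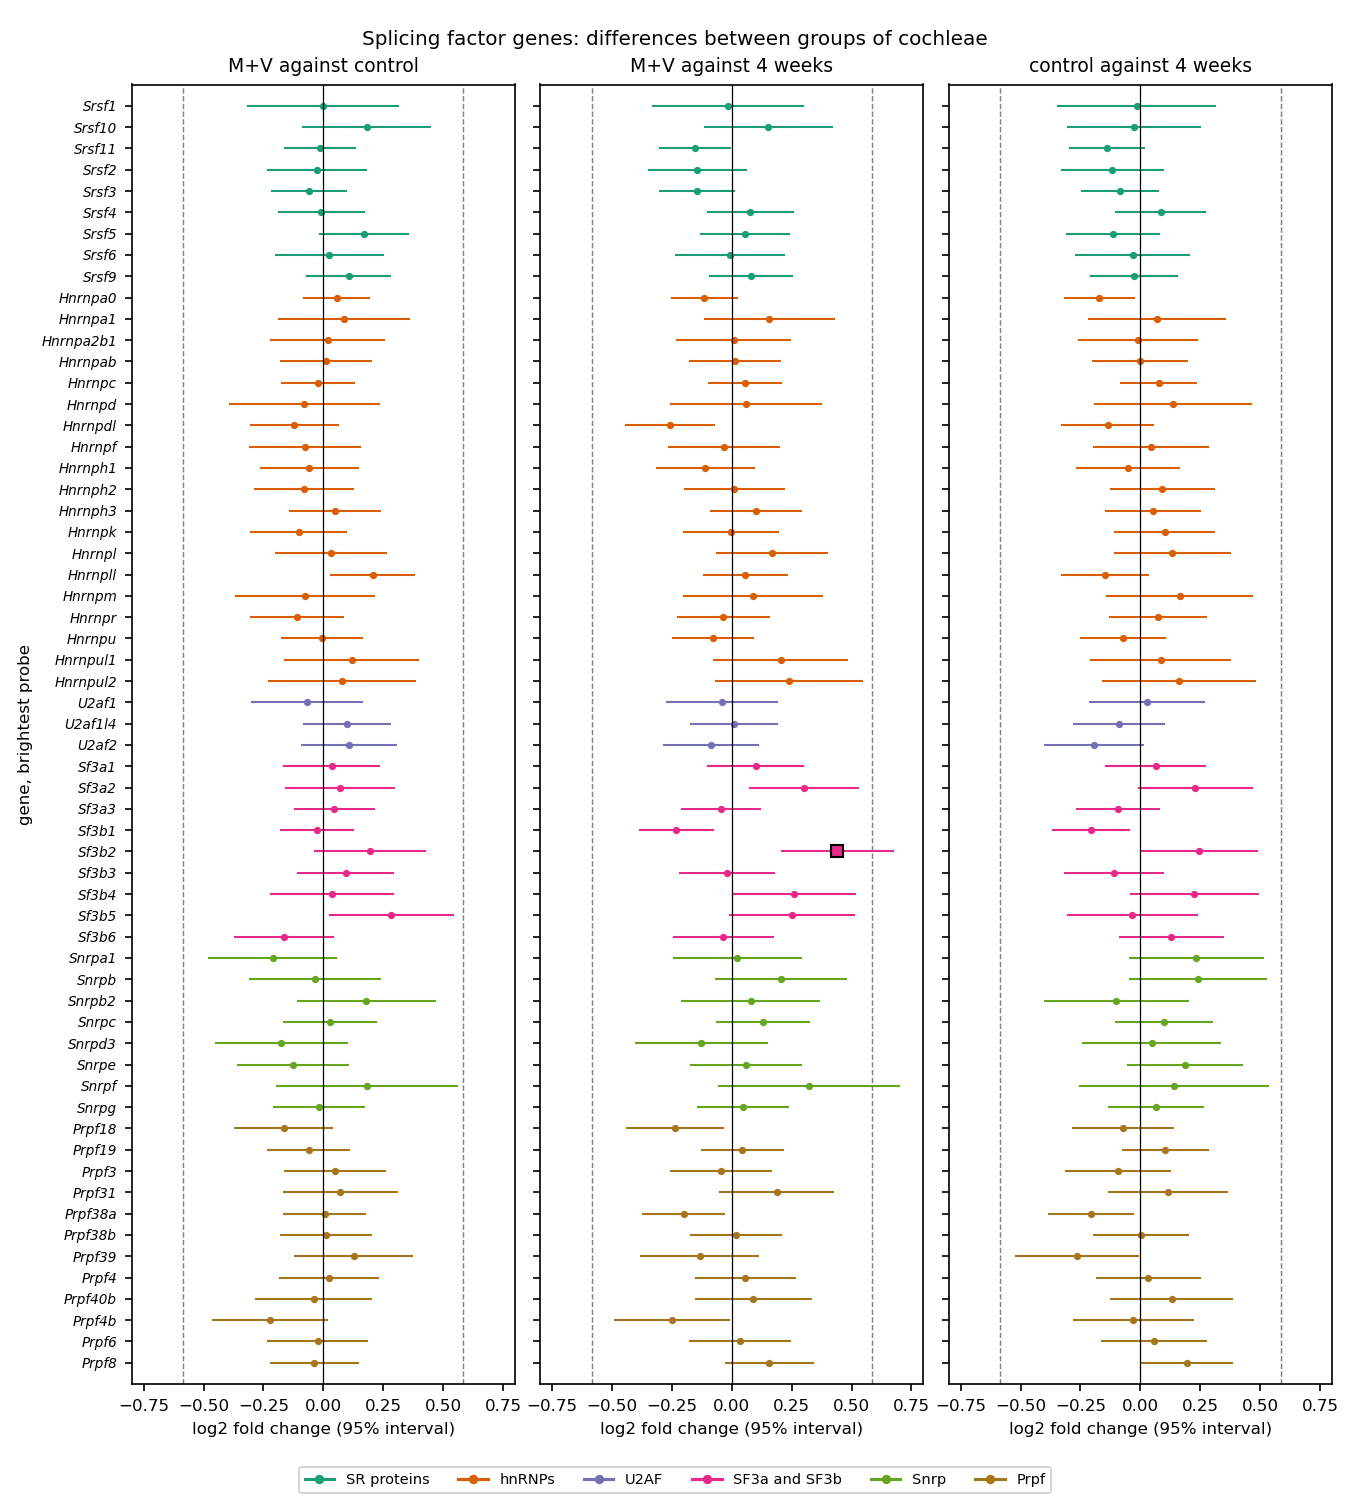
Log2 fold changes (x axis) of the 60 tested splicing factor genes (rows, brightest probe, coloured by family) in 3 comparisons, with 95% intervals as lines; dashed lines mark a 1.5-fold change, and the black-edged square marks an adjusted p under 0.05. All intervals of M+V against control lie inside the dashed lines, and Sf3b2 in M+V against 4 weeks is the single square.

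Family by family, the medians for M+V against control were 0.00 for the SR proteins, -0.01 for the hnRNPs, 0.10 for U2AF, 0.05 for SF3a and SF3b, -0.03 for Snrp and -0.01 for Prpf. The 2 genes past the unadjusted threshold were Hnrnpll and Sf3b5. Hnrnpll, which encodes an hnRNP L relative known for exon skipping in lymphocytes, had control log2 signals of 11.68, 11.54, 11.56, 11.80 and 11.77. Its M+V signals ran from 11.75 to 12.10 with a median of 11.86. The groups overlapped at their edges, and the difference of 0.21 (SE 0.08, unadjusted p = 0.0222) had an adjusted p of 0.465. A second Hnrnpll probe had means of 11.33 in control and 11.36 in M+V. Sf3b5, a small subunit of SF3b, read 12.20, 11.90, 11.79, 12.12 and 12.03 in control and 11.94 to 12.62 with a median of 12.24 in M+V. Both highest values, 12.57 and 12.62, came from M+V replicates 1 and 2, the pair with the high spike-in signal, and the difference of 0.28 (SE 0.12, adjusted p = 0.480) was 0.18 within the arrays of low spike-in signal. A second Sf3b5 probe gave 0.13.

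Among the remaining genes with the largest moderated t, Sf3b2 had a log2 fold change of 0.20, the SR proteins Srsf5 and Srsf10 had 0.17 and 0.18, and Snrpb2, the U2 snRNP protein B'', had 0.18. On the other side, the kinase gene Prpf4b had -0.22, Prpf18, a factor of the second catalytic step, -0.17, Sf3b6, the subunit that contacts the branch point adenosine, -0.16, Snrpa1, the U2 snRNP protein A', -0.21, Snrpd3, an Sm ring protein, -0.17, and Hnrnpdl -0.12. Their adjusted p values ran from 0.543 to 0.681. Values of these genes overlapped between the groups. Single arrays moved several of them: Snrpb2 was 0.09 without control replicate 4, Sf3b2 0.11 without control replicate 1, Prpf4b -0.14 without control replicate 2, and Snrpa1 -0.13 and Sf3b6 -0.11 without M+V replicate 3. Snrpd3 was -0.28 without control replicate 3 and -0.09 without M+V replicate 1, and without the latter array Hnrnpdl was -0.06. Within the arrays of low spike-in signal Prpf18 was -0.06, Hnrnpdl -0.05, Snrpd3 -0.08, Sf3b2 0.10 and Snrpb2 0.27.

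Against 4 weeks, 1 splicing factor gene rose in M+V cochleae and none fell at an adjusted p of 0.05, beside 2.52% of tested genes higher and 2.41% lower. It was Sf3b2, a subunit of SF3b that holds the U2 snRNP at the branch site. At an unadjusted p under 0.05, 3 genes were higher and 6 lower, against 12.9% and 9.21% of all genes. Log2 fold changes ran from -0.26 to 0.44, the median was 0.03 both for the splicing factors and for all genes, and 58 of the 60 intervals lay within 1.5-fold, against 73.9% of all genes. The exceptions were Sf3b2 and Snrpf, an Sm ring protein whose difference of 0.32 (SE 0.18) had an adjusted p of 0.301. Snrpf was highest on M+V replicate 1, at 10.64 against at most 10.02 on the other M+V arrays, and the difference was 0.19 without that array and 0.69 among arrays of high spike-in signal. Groups did not overlap for 0 genes higher and 2 lower, Sf3b1 and Hnrnpdl, against 2.35% and 2.73% of all genes.

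The SF3 genes stood at both ends of this comparison, and the promoters of Sf3b2, Sf3a2 and Sf3b1 are shown because these genes differed most by moderated t within the U2-associated complexes. The sequences are the 200 bases before the annotated start from RefSeq (build GRCm38.p6), for Sf3b2 chr19:5295458-5295657 on the minus strand, for Sf3a2 chr10:80798535-80798734 on the plus strand and for Sf3b1 chr1:55027479-55027678 on the minus strand, with CCAAT boxes (CCAAT), GC boxes (GGGCGG) and ETS cores (CCGGAAG) on either strand in capitals.
Sf3b2: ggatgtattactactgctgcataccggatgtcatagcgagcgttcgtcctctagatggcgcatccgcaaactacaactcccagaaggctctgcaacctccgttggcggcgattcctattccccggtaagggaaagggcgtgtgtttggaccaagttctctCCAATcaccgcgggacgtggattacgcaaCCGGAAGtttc
Sf3a2: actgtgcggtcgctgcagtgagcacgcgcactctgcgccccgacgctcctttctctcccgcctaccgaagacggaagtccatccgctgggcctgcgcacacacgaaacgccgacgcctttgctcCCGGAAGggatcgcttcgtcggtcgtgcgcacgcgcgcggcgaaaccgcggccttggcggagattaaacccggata
Sf3b1: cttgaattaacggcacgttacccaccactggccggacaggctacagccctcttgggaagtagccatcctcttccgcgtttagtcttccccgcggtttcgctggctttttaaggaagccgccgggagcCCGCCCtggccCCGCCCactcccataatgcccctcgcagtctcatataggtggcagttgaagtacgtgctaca
The Sf3b2 window held 1 CCAAT box and 1 ETS core, the Sf3a2 window 1 ETS core and the Sf3b1 window 2 GC boxes. Of the 55 splicing factor genes with a promoter in the table, 26 (47.3%) held a CCAAT box, 31 (56.4%) a GC box and 14 (25.5%) an ETS core. Among all 27025 promoters, which include those of genes not tested here and of noncoding genes, the shares were 30.0%, 31.3% and 6.45%. Median GC content was 60.5% in the former and 53.0% in the latter. A match of letters is a description and no measure of binding.

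Sf3b2 log2 signals at 4 weeks were 11.51, 11.71, 11.67, 12.01 and 11.88. Control arrays read 11.67, 12.16, 12.14, 12.03 and 12.01, and M+V arrays 11.98 to 12.36 with a median of 12.23. The lowest M+V array lay just under the highest array at 4 weeks, and the lowest control array was replicate 1, the control array with the high spike-in signal. Means were 11.76 ± 0.19 (SD, n = 5) at 4 weeks, 12.00 ± 0.20 (n = 5) in control and 12.20 ± 0.14 (n = 6) in M+V. M+V exceeded 4 weeks by 0.44 (SE 0.11, adjusted p = 0.0289) and control by 0.20 (adjusted p = 0.570), and control exceeded 4 weeks by 0.24 (adjusted p = 0.355). Among arrays of high spike-in signal alone the difference from 4 weeks was 0.46 (adjusted p = 0.127), and with the spike-in set as a block it was 0.35 (adjusted p = 0.119), so the call was lost but the direction kept. The second probe of the gene gave 0.31 (adjusted p = 0.0589) and the other 3 tested probes 0.19, 0.06 and -0.04. The brightest probe carries the suffix that marks possible hybridisation with other sequences, and its call was lost without any one of 4 weeks replicates 1, 2 or 3 or M+V replicates 2, 4, 5 or 6 (the difference ran from 0.38 to 0.50 over the 16 arrays left out in turn).

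Sf3b1, the large SF3b subunit that encloses the branch helix, lay on the other side. Its log2 signals were 12.72, 12.71, 12.80, 12.60 and 12.66 at 4 weeks, 12.58, 12.49, 12.41, 12.55 and 12.44 in control, and 12.30 to 12.57 with a median of 12.50 in M+V. Every array at 4 weeks lay above every array at 12 weeks, with or without treatment. The difference from 4 weeks was -0.23 (SE 0.07, adjusted p = 0.0682) for M+V and -0.21 (SE 0.08, adjusted p = 0.216) for control, and between M+V and control it was -0.03. Among arrays of high spike-in signal the differences from 4 weeks were -0.36 (adjusted p = 0.0998) and, on 1 control array, -0.12. Its other probes disagreed: they gave 0.18, 0.02 and -0.43 for M+V against 4 weeks. The last of these, probe 1418562_at, read 10.85 to 11.05 in control and 10.05 to 10.81 in M+V, with no overlap, and its difference of -0.43 (SE 0.14, unadjusted p = 0.00802) had an adjusted p of 0.420 against control.

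Sf3a2, a subunit of SF3a, and Sf3b4, the SF3b subunit that binds RNA upstream of the branch point, shared a pattern across arrays that was not particular to them. Sf3a2 read 10.93, 10.98, 11.13, 11.13 and 10.80 at 4 weeks, 10.92, 11.23, 11.15, 11.44 and 11.38 in control, and 10.97 to 11.38 with a median of 11.35 in M+V. Sf3b4 read 10.51, 10.90, 10.63, 10.67 and 10.61 at 4 weeks, 10.50, 10.93, 11.02, 11.13 and 10.86 in control, and 10.54 to 11.11 with a median of 10.98 in M+V. In both genes the lowest array of control was replicate 1 and the lowest of M+V was replicate 1, which shared the high spike-in signal of the arrays at 4 weeks, whereas M+V replicate 2, with that signal too, was among the higher M+V arrays at 11.38 for Sf3a2 and 11.03 for Sf3b4. Snrpb, Prpf8 and Hnrnpl were also lowest of control on its replicate 1 and lowest of M+V on its replicate 1. The average over the splicing factor genes was -0.08 on that control array and -0.10 on that M+V array. M+V exceeded 4 weeks by 0.30 (SE 0.11, adjusted p = 0.110) for Sf3a2 and by 0.26 (SE 0.12, adjusted p = 0.212) for Sf3b4. With the spike-in as a block these were 0.13 and 0.05, and among arrays of high spike-in signal 0.18 and 0.12. Sf3b5 had 0.25 (SE 0.12, adjusted p = 0.241), which became 0.50 (adjusted p = 0.0223) with the block and 0.55 (adjusted p = 0.0531) among arrays of high spike-in signal, and without M+V replicates 1 and 2 it was 0.10. The second Sf3b5 probe was nearly level, with means of 11.35 at 4 weeks and 11.40 in M+V. It read 11.40 and 11.57 on M+V replicates 1 and 2.

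**Figure D2:**
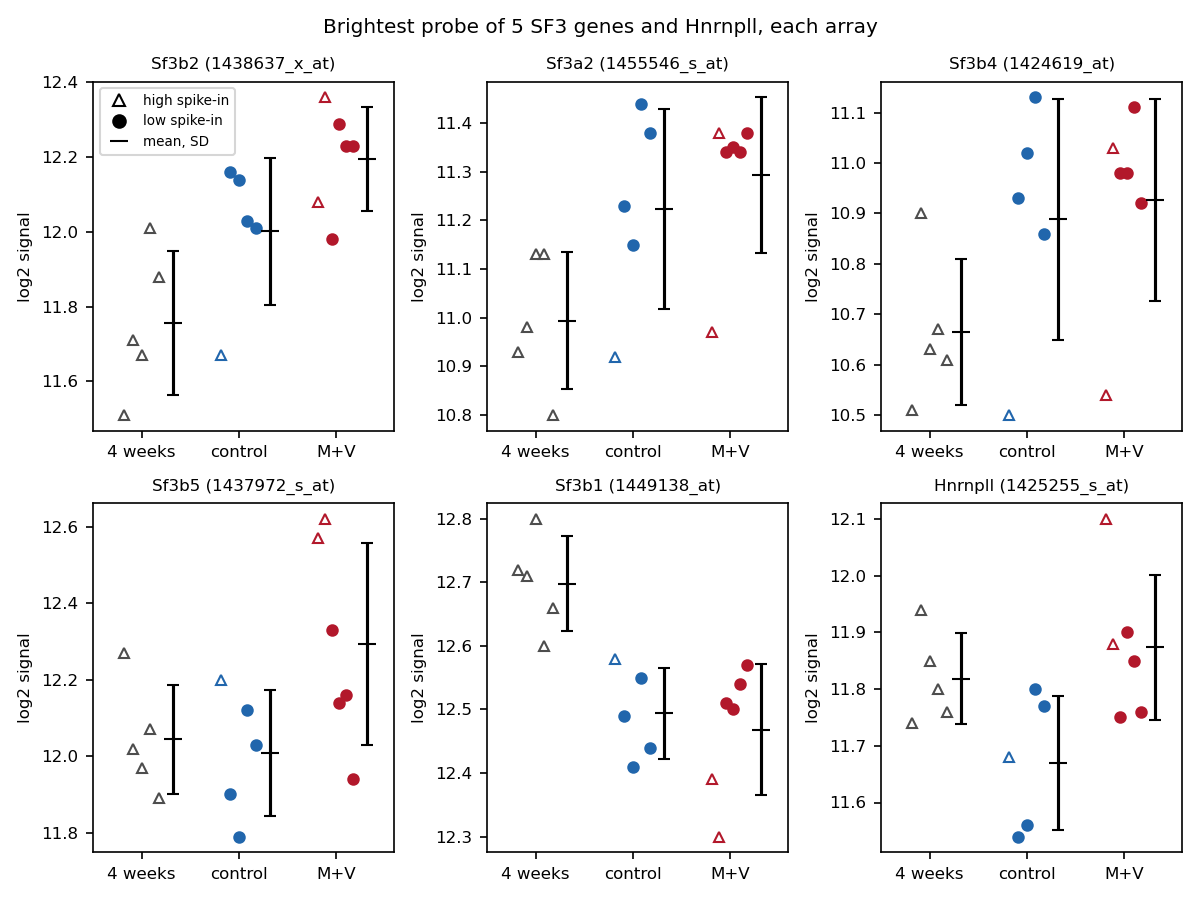
Log2 signal (y axis, own range per panel) of the brightest probe of Sf3b2, Sf3a2, Sf3b4, Sf3b5, Sf3b1 and Hnrnpll on each array, by group (x axis), with the mean and SD beside the points; open triangles are arrays of high and filled circles arrays of low spike-in signal. The arrays at 4 weeks lie above all others for Sf3b1, and for Sf3a2 and Sf3b4 the open triangles of control replicate 1 and M+V replicate 1 lie among those at 4 weeks.

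Lower values in M+V than at 4 weeks, none past the adjusted threshold, were found for the hnRNP gene Hnrnpdl, the SR protein gene Srsf11 and the Prpf genes Prpf4b, Prpf18 and Prpf38a. Hnrnpdl, whose protein binds AU-rich RNA, read 13.72, 13.58, 13.83, 13.57 and 13.54 at 4 weeks and 13.09 to 13.48 with a median of 13.45 in M+V, a difference of -0.26 (SE 0.09, adjusted p = 0.0912), which was -0.40 among arrays of high spike-in signal. All M+V arrays lay below all arrays at 4 weeks. Of its 6 other tested probes, 5 differed from 4 weeks in the same direction, by -0.34 to -0.02, and 1 by 0.03. Prpf4b had -0.25, Prpf18 -0.24, Prpf38a, a protein needed for spliceosome activation, -0.20 and Srsf11 -0.15, with adjusted p values of 0.147 to 0.207. Prpf8, the protein at the catalytic centre of the spliceosome, had 0.16 (adjusted p = 0.300). With the spike-in as a block the value was 0.01 for Prpf8, -0.11 for Prpf38a and -0.35 for Prpf18, and among arrays of high spike-in signal it was 0.03 for Prpf8, -0.10 for Prpf38a, -0.43 for Prpf18 and -0.16 for Prpf4b.

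Between control and 4 weeks no splicing factor gene passed the adjusted threshold by limma or by the methods' t-test, where 0.402% of all tested genes were higher and 1.05% lower. At an unadjusted p under 0.05, 2 were higher, Sf3b2 and Prpf8, and 4 lower, Sf3b1, Hnrnpa0, Prpf38a and Prpf39, against 6.79% and 7.11% of all genes. The range was -0.26 to 0.24 around a median of 0.04, beside 0.01 for all genes, and all 60 intervals lay within 1.5-fold, against 75.9%. The median was -0.04 with the spike-in as a block and -0.08 among arrays of high spike-in signal, of which control had 1. Groups did not overlap for 0 genes higher, against 2.22%, and for 3 lower, Sf3b1, Hnrnpa0 and Srsf11, against 3.71%. Hnrnpa0, whose protein binds AU-rich mRNA ends, read 12.44, 12.52, 12.44, 12.37 and 12.35 at 4 weeks and 12.24, 12.26, 12.19, 12.25 and 12.33 in control, a difference of -0.17 (SE 0.07, adjusted p = 0.259). Prpf39, a U1 snRNP protein, had -0.26, Prpf38a -0.21, U2af2, the large U2AF subunit that binds the polypyrimidine tract, -0.19 and Srsf11 -0.14. Snrpb, the Sm protein B, had 0.24, Snrpa1 0.23, Sf3a2 0.23, Sf3b4 0.22 and Prpf8 0.19, and within arrays of high spike-in signal, 1 control array among them, the value was 0.0088 for Prpf39, -0.12 for Prpf38a, -0.06 for Srsf11, 0.11 for Snrpa1, -0.22 for Snrpb, -0.08 for Sf3a2, -0.16 for Sf3b4, -0.0027 for Prpf8 and -0.09 for Sf3b2.

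Tested probes of 1 gene often had log2 fold changes of different sign. In M+V against control the tested probes of 17 of the 38 genes with more than 1 all pointed the same way, and those of 21 did not. For M+V against 4 weeks the count was 15 of 38 and for control against 4 weeks 16 of 38. These counts have no share over all genes beside them, and values near 0 can take either sign. Of the 86 probe pairs, other probe minus brightest, none passed the adjusted threshold in M+V against control, where 2 of 7395 pairs on the array did. By limma, 5 pairs were higher and 6 lower at an unadjusted p under 0.05, beside 328 and 445 of the 7395. Among the 86 other tested probes, none passed the adjusted threshold in M+V against control by limma or by the methods' t-test, where 0% of all tested probes passed by limma. At an unadjusted p under 0.05, 2 were higher and 4 lower, beside 4.67% and 5.13% of all tested probes. The study's cutoffs were passed by 0 higher, against 0.196%, and by 2 lower, against 1.34%. Against 4 weeks, 4 of the 86 fell in M+V, against 3.20% of probes lower, and 0 rose, against 2.08%. In control against 4 weeks 1 fell, against 1.01%, and 0 rose, against 0.369%. At an unadjusted p under 0.05, 17 of the 86 were lower and 3 higher in M+V than at 4 weeks, beside 11.2% and 11.0% of all tested probes, and 12 were lower and 1 higher in control, beside 7.75% and 6.07%. The 4 that fell belonged to Hnrnpab, Hnrnpr, Prpf38b and Srsf3, and the brightest probe of each of these genes gave -0.14 to 0.02. M+V lay wholly below 4 weeks for 2 of the 86 other probes and wholly above for 0, beside 590 and 425 of all 21391 tested probes. Control lay wholly below 4 weeks for 5 and above for 0, beside 781 and 420. M+V lay wholly below control for 1 and above for 0, beside 123 and 112.

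**Figure D3:**
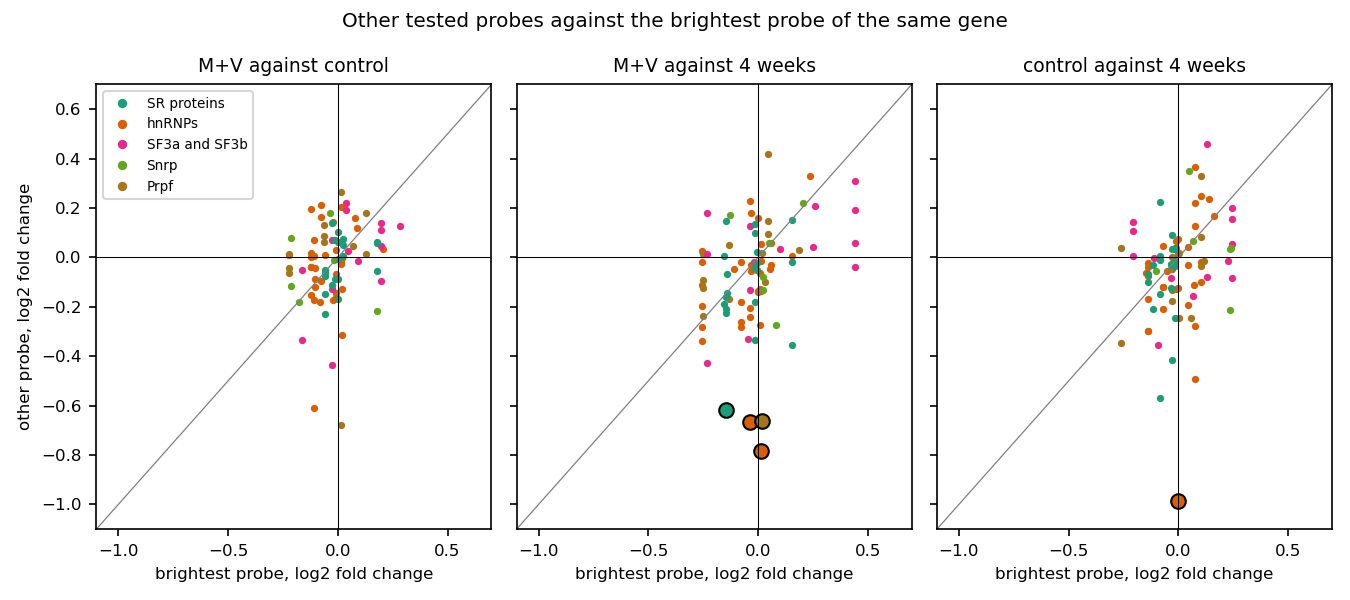
Log2 fold change of each of the 86 other tested probes (y axis) against that of the brightest probe of the same gene (x axis) in 3 comparisons, coloured by family, with the line of equality; large black-edged points have an adjusted p under 0.05. In M+V against 4 weeks the 4 large points lie between -0.78 and -0.62 on the y axis and between -0.14 and 0.02 on the x axis.

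Hnrnpab, an hnRNP bound to AU-rich and G-rich sequences, showed the widest gap. Probe 1426114_at read 12.25, 12.16, 12.24, 12.48 and 12.55 at 4 weeks, 11.43, 11.34, 10.99, 11.53 and 11.46 in control, and 11.11 to 12.36 with a median of 11.36 in M+V. Control lay wholly below 4 weeks, and control replicate 1, with the high spike-in signal, read 11.43 among the other control arrays. M+V replicates 1 and 2, also of high spike-in signal, read 11.97 and 12.36. Replicate 1 lay below the lowest array at 4 weeks, 12.16, and replicate 2 within the range at 4 weeks. The other M+V arrays read 11.11 to 11.37, below all arrays at 4 weeks. Control differed from 4 weeks by -0.99 (SE 0.20, adjusted p = 0.0220) and M+V by -0.78 (SE 0.19, adjusted p = 0.0284). With the spike-in as a block the values were -0.49 (adjusted p = 0.276) and -0.37 (adjusted p = 0.210), and among arrays of high spike-in signal they were -0.91 (adjusted p = 0.268) and -0.17 (adjusted p = 0.555). The brightest probe of the gene gave 0.00 and 0.01, and the 3 other tested probes -0.14 to 0.08 in both comparisons. Probe 1426114_at minus the brightest probe was -0.80 (SE 0.19, adjusted p = 0.0436) in M+V against 4 weeks, the single pair among 86 past the threshold, where 0.974% of 7395 pairs on the array were lower and 0.325% higher. In control against 4 weeks that difference was -0.98 (adjusted p = 0.0564), where 0.0811% of pairs were lower and 0.0270% higher.

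Hnrnpr, an hnRNP that binds mRNA in neurons and other cells, had 2 probes that passed a cutoff where its brightest probe did not. Probe 1452030_a_at read 8.86, 8.47, 8.29, 8.87 and 8.24 at 4 weeks, 7.72, 8.28, 7.66, 8.29 and 8.33 in control, and 7.62 to 8.13 with a median of 7.88 in M+V. All M+V arrays lay below all arrays at 4 weeks, and the difference of -0.66 (SE 0.16, adjusted p = 0.0220) was -0.71 (adjusted p = 0.0445) with the spike-in as a block and -0.57 (adjusted p = 0.149) among arrays of high spike-in signal. It lost the threshold without 4 weeks replicate 1 (-0.59) or replicate 4 (-0.58). Probe 1452030_a_at minus the brightest probe was -0.63 (SE 0.16, adjusted p = 0.0580) in M+V against 4 weeks, short of the threshold. Probe 1438807_at read 9.14, 9.42, 9.57, 9.20 and 9.48 in control and 8.08 to 9.31 with a median of 8.77 in M+V. The difference of -0.61 (SE 0.20, unadjusted p = 0.00791, adjusted p = 0.420) lay past the study's cutoffs, and the groups overlapped. In the same comparison the brightest probe gave -0.11 and the other 3 gave -0.17, 0.01 and 0.07.

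Prpf38b, a relative of Prpf38a, was the one gene of which tested probes passed an unadjusted p under 0.05 in opposite directions in 1 comparison. Probe 1455016_at read 8.42, 8.11, 7.82, 8.44 and 8.09 at 4 weeks, 7.82, 8.38, 8.37, 8.00 and 8.39 in control, and 6.99 to 7.90 with a median of 7.50 in M+V. M+V arrays overlapped control arrays through control replicate 1 alone. The difference was -0.68 against control (SE 0.17, unadjusted p = 9.69e-04, adjusted p = 0.365) and -0.66 against 4 weeks (adjusted p = 0.0330). Against 4 weeks the call was lost with the spike-in as a block (-0.64, adjusted p = 0.0850) and among arrays of high spike-in signal (-0.45, adjusted p = 0.200), and against control the difference was -0.88 (adjusted p = 0.373) within arrays of low spike-in signal. Probe 1428674_at read 10.38, 10.11, 10.16, 10.32 and 10.22 in control and 10.24 to 10.82 with a median of 10.51 in M+V, a difference of 0.27 (SE 0.10, unadjusted p = 0.0215, adjusted p = 0.465). The brightest probe, with 10.97 ± 0.06 (SD, n = 5) in control and 10.98 ± 0.15 (n = 6) in M+V, gave 0.01. Probe 1455016_at minus the brightest probe was -0.69 (adjusted p = 0.242) in M+V against control and -0.68 (adjusted p = 0.102) in M+V against 4 weeks. Prpf38b and Hnrnpr stand in the tables of the study, which were drawn from these arrays, so that listing is no independent evidence.

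Srsf3, the shortest SR protein, which promotes inclusion of an exon with an early stop in its own transcript, had 6 tested probes. Probe 1438215_at read 9.04, 8.84, 8.78, 9.22 and 8.87 at 4 weeks, 8.26, 8.73, 8.37, 8.39 and 8.15 in control, and 8.01 to 8.95 with a median of 8.27 in M+V. Control lay wholly below 4 weeks, and the one M+V array within the range at 4 weeks was replicate 1. The other 12-week arrays of high spike-in signal, M+V replicate 2 at 8.41 and control replicate 1 at 8.26, lay below that range. M+V differed from 4 weeks by -0.62 (SE 0.15, adjusted p = 0.0285) and control by -0.57 (SE 0.16, adjusted p = 0.102). With the spike-in as a block the former was -0.44 (adjusted p = 0.147), and among arrays of high spike-in signal it was -0.27 (adjusted p = 0.399). The remaining 5 probes gave -0.22 to 0.15 for M+V against 4 weeks, 4 of them below 0. A dimmer probe of another SR protein, Srsf10 probe 1418527_a_at, split the M+V arrays: replicates 1 and 2, with the high spike-in signal, read 9.80 and 9.84, within the range at 4 weeks (9.71 to 9.96), while the other M+V arrays read 9.18 to 9.50. Control read 9.27 to 9.59, and its replicate 1, also of high spike-in signal, lay at 9.36 among the other control arrays.

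**Figure D4:**
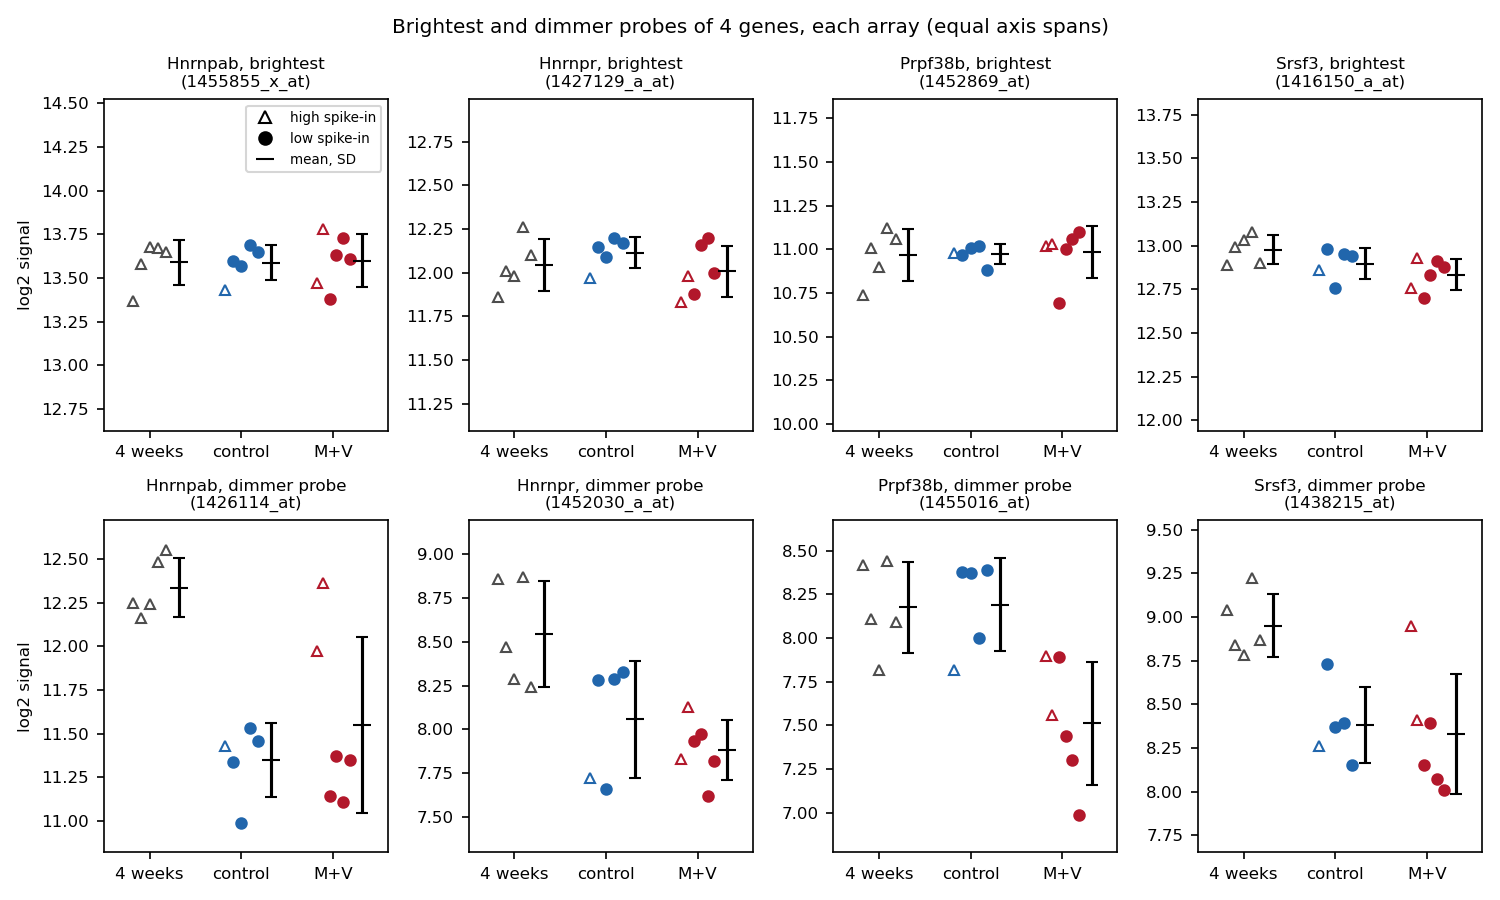
Log2 signal (y axis, the same span of 1.9 in each panel) on each array, by group (x axis), of the brightest probe (upper row) and of a dimmer probe (lower row) of Hnrnpab, Hnrnpr, Prpf38b and Srsf3, with means and SD; open triangles are arrays of high spike-in signal. The upper row is level across groups, and in the Hnrnpab panel of the lower row the 2 open triangles of M+V, at 11.97 and 12.36, lie near the arrays at 4 weeks. The open triangle of control in that panel, at 11.43, lies among the other control arrays.

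Splicing genes outside these families, from a list of 100 snRNP proteins, helicases, kinases and regulators, had log2 fold changes in M+V against control from -0.84 to 0.37 around a median of -0.02, and 81 of 90 intervals lay within 1.5-fold. Of 93 on the array 90 were tested, and none passed the adjusted threshold. At an unadjusted p under 0.05, 2 were higher and 6 lower, against 5.09% and 3.74% of all genes, and 2 lower passed the study's cutoffs, against 0.987%. Those past the cutoffs were Rbfox1 and Nova1. Nova1 read 7.73 to 9.34 in control and 6.6 to 8.19 in M+V, lowest on M+V replicate 2, the array of lowest neuron marker signal. Srpk2, a kinase that phosphorylates SR proteins, read 11.02, 10.98, 11.11, 10.89 and 10.82 in control and 10.10 to 10.67 in M+V. The groups did not overlap, which held for 1 of the 90 lower and 0 higher, against 0.288% and 0.611% of all genes. Its difference of -0.50 (SE 0.12, unadjusted p = 5.74e-04) had an adjusted p of 0.365. Rbfox1, a neuronal splicing regulator, had -0.84 (adjusted p = 0.420), or -0.42 within arrays of low spike-in signal, with its lowest arrays, 7.24 and 8.00, in the M+V replicates of lowest neuron marker signal, and the part of that signal was not tested. Against 4 weeks, Lsm4, a U6 snRNP ring protein, rose by 0.52 (adjusted p = 0.0394) and Tra2b, an SR-like exon inclusion factor, fell by 0.33 on the log2 scale (adjusted p = 0.0186) in M+V, 1 of the 90 each way against 2.52% and 2.41% of all genes. Among arrays of high spike-in signal both calls were lost, at 0.57 (adjusted p = 0.162) and -0.25 (adjusted p = 0.251), and with the spike-in as a block Tra2b had -0.25 (adjusted p = 0.0958). Lsm4 lost its call without any one of 10 of the 16 arrays (0.45 to 0.62 over all left out in turn), and Tra2b without 4 weeks replicate 1 (-0.31) or 2 (-0.29). Control differed from 4 weeks by 0.59 (adjusted p = 0.0552) for Lsm4 and by -0.31 (adjusted p = 0.0661) for Tra2b.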

How the data were processed

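Biotin-labelled cRNA from 16 whole cochleae was hybridised to Affymetrix mouse genome arrays. The authors extracted signals with GCOS and MAS5 and quantile-normalised them, and the deposited values are log2 signals with a median of 6.90 on every array. No version of either tool is given in the sources used here. Signals under 1 were set to 1 (0.869% of values). Of 45101 probes, 34945 had 1 gene symbol, 932 several and 9211 none in the array annotation, and 64 control probes were left out. MAS5 present calls were not used here; 21391 probes were tested, those that reached the array median throughout 1 or more groups.

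All arrays entered 1 limma model (limma 3.58.1, R 4.3.3) of the 3 group means, with two-sided tests and Benjamini-Hochberg adjustment over all tested probes at 0.05; the study's cutoffs were counted too, and the methods' t-test was an alternative. Intervals are 95% intervals of the fit. Probe pairs of 1 gene were tested as differences over 7395 pairs. The script was tested on simulated data. Named genes are, in each comparison, the 6 with the largest moderated t each way, any called, Prpf38b and Hnrnpr, and genes whose other probes were called or opposed; of other splicing genes, those called or the 3 with the largest moderated t each way, of which some are given here. Other genes, and Srsf10 probe 1418527_a_at, were named after their values were seen. Members, lists and tests were chosen with earlier results of these data known. Alternatives covered normalization, pseudocount, filters, tests, arrays in the fit, the replicate block, array weights, the spike-in sets, RNA quality (the Gapdh 3'/5' difference), brain markers, the probe chosen and leaving out each array; the probe-pair fit, the counts over other probes and the fit without M+V replicates 1 and 2 were added after seeing the data. Arrays are from separate mice, and their number limits the precision. Promoters came from RefSeq (GRCm38.p6).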

Additional observations from a re-analysis of the deposited data

Results flagged for a closer look

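In 6 of 93 groups of arrays checked (31 probes named in the text, in 3 groups each), 1 array stood far from the others, and chance alone gives about 1 in 20. M+V replicate 1 was the lowest of its group for Hnrnpdl at 13.09 (the nearest array was at 13.42), for Sf3a2 at 10.97 (nearest 11.34) and for Sf3b4 at 10.54 (nearest 10.92). M+V replicate 3 was lowest for the brightest probe of Prpf38b at 10.69 (nearest 11.0) and for Srsf10 at 10.99 (nearest 11.4). At 4 weeks, replicate 5 was lowest for Snrpb2 at 10.5 (nearest 10.8).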

How the results depend on the processing

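In M+V against control, no splicing factor gene and none of their other probes passed the adjusted threshold under any alternative run. No gene, by the 1 probe or mean read for it, passed the study's cutoffs under any alternative. Of the other probes, 2 passed those cutoffs in the main fit, Prpf38b 1455016_at (-0.68) and Hnrnpr 1438807_at (-0.61). Over the genes and probes named, 1496 of 1630 recomputed values kept their direction and side of the threshold, 77 fell short of it, 5 newly passed it and 52 changed sign. That total is no measure of stability. Most results had no call to lose, and filters or arrays outside a comparison leave its fold change as it was. For M+V against 4 weeks, calls lost and kept were 16 and 17 for Sf3b2, 17 and 13 for Prpf38b, 14 and 17 for Hnrnpab, 8 and 22 for Hnrnpr and 13 and 17 for Srsf3. For Hnrnpab in control they were 9 and 22. The 1 gene higher in M+V than at 4 weeks became 0 with no filter, with the filter at the 25th percentile, with the methods' t-test on log2 or linear signals, within the arrays of high spike-in signal, with the brain marker score, with the second brightest probe and with the mean over tested probes, and 2 with array weights (Sf3b2 and Sf3a2). With the spike-in as a block it was also 1, but this was Sf3b5 in place of Sf3b2. The count lower was 1 with the filter at the 75th percentile (Sf3b1) and with array weights (Prpf38a). Leaving out 1 array at a time gave 0 to 2 genes higher, with 2 without M+V replicate 1. The cause of these changes was not tested.

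Of the other probes, the 4 lower in M+V than at 4 weeks became 0 with no filter, with the methods' t-test on either scale and within arrays of high spike-in signal, 1 with the filter at the 25th percentile and with the compared groups alone, 2 with the spike-in as a block (Hnrnpr, 1 of the 4, and an Hnrnpdl probe that was not), 7 without M+V replicates 1 and 2 and 10 with array weights. The count higher, 0, became 1 with cyclic loess and with the filter at the 75th percentile, and 2 with array weights and without M+V replicates 1 and 2. For control against 4 weeks the 1 lower became 0 with no filter, with the spike-in as a block and within the high arrays, 2 with the methods' t-test on log2 or linear signals and with the brain score, 3 with the compared groups alone, 4 without M+V replicates 1 and 2 and 5 with array weights. Leaving out 1 array gave 0 to 7 lower and 0 to 2 higher in M+V, and 0 to 2 lower in control. The 1 probe pair in M+V against 4 weeks became 0 with the methods' t-test on log2, with the compared groups alone, with the spike-in as a block, within the high arrays and with the brain score, 2 with cyclic loess, log2(signal + 32) and the Gapdh covariate, 6 with array weights and 7 without M+V replicates 1 and 2, and 0 to 5 on leaving out 1 array. In control against 4 weeks the 0 pairs became 1 with the compared groups alone, array weights, the Gapdh covariate and without M+V replicates 1 and 2, and 0 to 1 on leaving out 1 array. Of the 4 dimmer probes called against 4 weeks, Hnrnpab lost its call in M+V without any one of 6 arrays (4 weeks replicates 1, 4 and 5, M+V replicates 4, 5 and 6; -0.95 to -0.70 over all arrays left out in turn) and in control without any one of 5 (4 weeks replicates 1, 4 and 5, control replicates 3 and 5; -1.03 to -0.90), Prpf38b without any one of 8 (4 weeks replicates 1, 2, 4 and 5, M+V replicates 2, 4, 5 and 6; -0.75 to -0.56) and Srsf3 without any one of 5 (4 weeks replicates 1, 4 and 5, M+V replicates 5 and 6; -0.74 to -0.55).

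Replicate numbers did not pair the arrays (15 same-numbered pairs, median correlation of residuals 0.0126, 6 over 0.1; -0.0190 in 70 other pairs). With the replicate block, 0 other probes were lower in M+V or in control than at 4 weeks, 0 probe pairs passed in M+V against 4 weeks, and the gene medians were 0.0049 for M+V against control, 0.014 for M+V against 4 weeks and 0.039 for control against 4 weeks. The brightest Prpf38b probe then changed sign, to -0.0100 against control and -0.0055 against 4 weeks.

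Medians of the genes in control against 4 weeks were -0.038 with the spike-in as a block and -0.077 within the high arrays. With the block, control against 4 weeks turned to -0.060 for Hnrnpr, -0.026 for Sf3b4 and -0.14 for Snrpb, and within the high arrays to -0.077 for Hnrnpr, 0.0088 for Prpf39, -0.0027 for Prpf8, -0.076 for Sf3a2, -0.089 for Sf3b2, -0.16 for Sf3b4 and -0.22 for Snrpb. The second brightest probe turned M+V against control to 0.0026 for Hnrnpdl, 0.0060 for Hnrnpr, 0.012 for Prpf4b, 0.080 for Snrpa1, -0.22 for Snrpb2 and -0.055 for Srsf10, M+V against 4 weeks to 0.23 for Hnrnpr, 0.014 for Prpf4b and 0.18 for Sf3b1, and control against 4 weeks to -0.25 for Prpf38b, 0.036 for Prpf39, 0.11 for Sf3b1, -0.014 for Sf3b4 and -0.21 for Snrpa1. The mean over tested probes turned M+V against control to -0.13 for Prpf38b and -0.018 for Snrpb2, M+V against 4 weeks to -0.21 for Prpf38b, and control against 4 weeks to -0.021 for Hnrnpr, -0.074 for Prpf38b and 0.013 for Sf3b1. The brightest Prpf38b probe, near 0 in each comparison, turned to -0.00104 (linear signals) and -0.018 (array weights) for control against 4 weeks, -0.0072 (within the low arrays), -0.043 (brain score) and -0.0092 (without M+V replicates 1 and 2) for M+V against control, and -0.034 (brain score) and -0.0047 (without M+V replicates 1 and 2) for M+V against 4 weeks. Hnrnpr turned to 0.029 (array weights) and 0.016 (without M+V replicates 1 and 2) in M+V against 4 weeks. Leaving out 1 array, the brightest Prpf38b probe ranged from -0.011 to 0.071 between M+V and control, from -0.041 to 0.076 between M+V and 4 weeks, and from -0.054 to 0.043 between control and 4 weeks. Hnrnpr ranged from -0.080 to 0.018 between M+V and 4 weeks.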
